A study of Mus musculus with 4 samples.

Results

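The comparison set osteogenic against normal medium after 3 days in MC3T3-E1 cells, for every gene that the array names. Its members were the 11835 genes measured on at least 1 of the 2 arrays, of 18193 named genes on the array. Each value is the log2 signal in osteogenic medium minus the log2 signal in normal medium, with 1 array on each side. MC3T3-E1 is an immortal preosteoblast line that came from the calvaria of newborn C57BL/6 mice. Both cultures grew in MEM α with 10% fetal bovine serum. The osteogenic culture also held 150 µM ascorbic acid 2-phosphate, a stable form of vitamin C, and 10 mM beta-glycerophosphate, a phosphate donor. Neither medium held another inducer by the labels. The same media were sampled after 6 days on 2 further arrays, which enter below as separate cultures set beside the day 3 values. They also entered the common scaling, the signal floor and the choice of each gene's probe set. All 4 samples are 1 cell line, and with 1 array per group no difference has a test, so "higher" and "lower" in counts mean by 2-fold or more between 2 arrays.

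Ascorbate is the cofactor of the hydroxylases that let collagen fold and leave the cell, and the collagen matrix that follows carries signals back to the preosteoblast through its integrins. Preosteoblasts divide, then leave the cell cycle and begin to express mineralisation genes, while BMP, Wnt, parathyroid hormone and mitogen signals tune that step through their own secreted antagonists and phosphatases. Cholesterol is made from acetyl units through mevalonate, squalene and lanosterol by enzymes that one pair of transcription factors controls together when cell sterol is low.

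Across the 11835 genes the median log2 difference was 0.0091, with quartiles of -0.24 and 0.26. Past 2-fold lay 417 genes (3.52%), of which 233 were higher (1.97%) and 184 lower (1.55%), and 6031 (51%) lay above zero. In 59 of the higher genes the normal medium signal was at the floor of 57.8, under which signals were set to that value, and in 56 of the lower genes the osteogenic signal was. Differences between probe sets of 1 gene put the error of a single probe set's log2 difference at 0.243, which covers probes and not cultures. Between the normal medium arrays of day 3 and day 6, 171 of 11723 genes (1.46%) passed 2-fold. The share past 2-fold was 15.6% among genes whose brighter signal lay between 116 and 231, and 0.678% among those above 7403. Ratios of the 3′ to the 5′ control probe sets, a sign of RNA quality, lay between 0.756 and 0.769 for Gapdh and between 1.17 and 1.25 for beta-actin. The 5′ control of the small ribosomal RNA differed, with 9193 in normal and 8406 in osteogenic medium at day 3 but 5137 and 739 at day 6. Its part in the day 6 values was not tested.

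**Figure D1:**
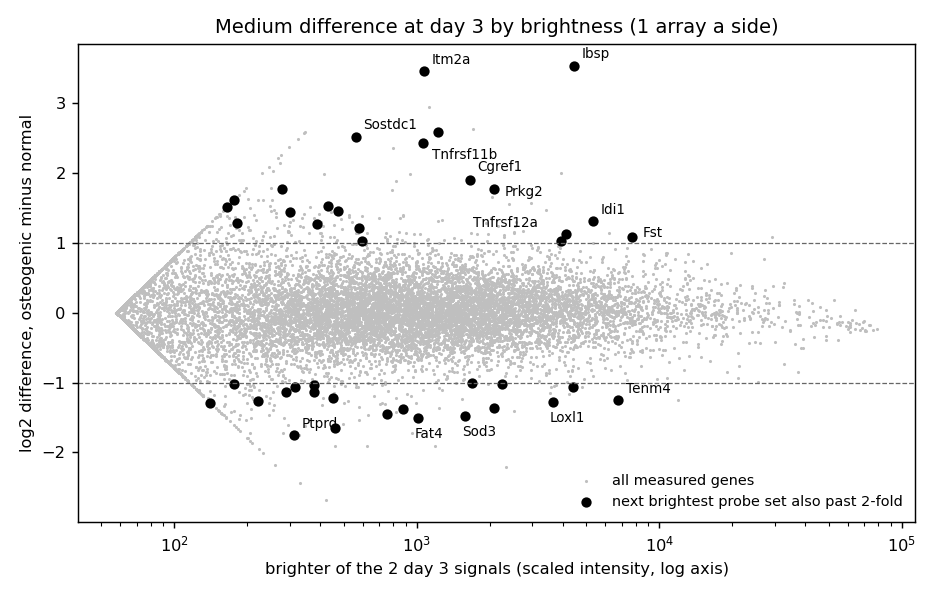
Log2 difference between media at day 3 (vertical axis) against the brighter of the 2 day 3 signals (horizontal axis, log scale) for 11835 genes, with black points for the 41 genes whose next brightest probe set also passed 2-fold. Dashed lines mark 2-fold, and the cloud is wide at dim signals and narrow at bright ones.

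Osteoblast markers were present on both arrays. Ibsp (bone sialoprotein), Alpl (alkaline phosphatase), Sp7 (a master regulator of osteoblast formation) and Col1a1 were 4 of 4 measured of their list, with log2 differences of 3.53, 1.55, 0.69 and -0.21. Runx2 and Bglap, also on the osteoblast list, had no probe set with 1 symbol and were not analysed. Mineralisation genes as a list had 9 of 19 measured members higher and 0 lower, against 1.97% and 1.55% of all genes. Another 7 of its genes, Spp1, Bglap and Phospho1 among them, were left out for the same reason. Of the other cell types, 0 of 5 adipocyte markers were above the floor. Measured were 2 of 6 skeletal muscle markers, 2 of 6 leukocyte markers and 1 of 6 endothelial markers, none of them past 2-fold. Among 4 of 6 measured chondrocyte markers Cnmd, a cartilage glycoprotein, stood at 1.36 and Col2a1, the cartilage collagen, at 1.12. Among 5 of 6 measured smooth muscle markers Cnn1, an actin-binding calponin, stood at 1.98 and Lmod1 at -0.84. Among 2 of 5 measured keratinocyte markers Krt14 stood at 1.45. The part of other cell states in the results that follow was not tested.

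Among the lists with 5 or more measured members, sterol synthesis had the largest share on one side of zero. Of 17 measured, 16 lay above zero, where 51% of all genes did, with a median log2 difference of 0.65 and 2 members past 2-fold. The next brightest probe set lay above zero in 10 of the 10 enzymes that had one, against 49.0% of 5656 genes. In the steps from Hmgcs1, which acts before mevalonate, to farnesyl diphosphate 6 of 6 lay above zero, with a median of 0.67. In those from the making of squalene to lanosterol 3 of 3 did, with a median of 0.65. In those from lanosterol to cholesterol 7 of 8 did, with a median of 0.58, and Tm7sf2, a sterol reductase, stood at -0.30 from signals of 274 and 223.

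The promoters of Hmgcs1, which makes the precursor of mevalonate, and of the 2 enzymes past 2-fold are shown because sterol response elements of such promoters are the known entry point of that control. They are RefSeq sequences of build GRCm38.p6, the 250 bases before each annotated start, with a match to the element in capitals. Hmgcs1 lies at chr13:119690101-119690350 on the plus strand, Idi1 at chr13:8885356-8885605 on the plus strand and Cyp51 at chr5:4104698-4104947 on the minus strand.
Hmgcs1: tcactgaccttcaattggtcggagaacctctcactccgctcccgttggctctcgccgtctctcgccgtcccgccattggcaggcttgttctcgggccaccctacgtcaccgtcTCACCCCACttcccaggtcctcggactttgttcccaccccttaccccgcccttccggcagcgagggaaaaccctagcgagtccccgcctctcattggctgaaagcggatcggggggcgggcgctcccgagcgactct
Idi1: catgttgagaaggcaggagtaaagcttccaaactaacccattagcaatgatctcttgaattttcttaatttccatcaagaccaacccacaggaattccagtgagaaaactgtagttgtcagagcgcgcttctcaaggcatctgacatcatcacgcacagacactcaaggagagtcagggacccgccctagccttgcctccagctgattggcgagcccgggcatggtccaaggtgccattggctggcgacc
Cyp51: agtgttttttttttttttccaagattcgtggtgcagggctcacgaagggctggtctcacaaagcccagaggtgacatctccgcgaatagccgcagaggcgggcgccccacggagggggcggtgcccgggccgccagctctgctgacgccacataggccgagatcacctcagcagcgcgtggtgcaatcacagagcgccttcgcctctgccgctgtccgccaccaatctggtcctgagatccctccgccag
The letters TCACNCCAC were searched on both strands, over the 250 bases before the start and a short stretch after it. They were found in 1 of 14 sterol synthesis genes with a promoter (7.14%), in Hmgcs1 with the first base at position -137 from the start. Among all 27025 genes with a promoter 1.44% held them, and among the measured genes 1.4%. For the other 13 this says only that these letters are not in that window.

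In pathway order, Hmgcs1 had signals of 8449 in normal and 12825 in osteogenic medium at day 3, a log2 difference of 0.60, and its next probe set gave 0.64. Mvk, mevalonate kinase, had 754 and 1147 (0.61, next 0.28). Pmvk, the kinase of the following step, had 628 and 684 (0.12), within the error of a single probe set. Mvd, the decarboxylase, had 372 and 698 (0.91). Idi1, the isomerase that activates the isoprene unit, was the highest of the list, with 2157 against 5337, 2.47-fold, and a next probe set at 1.04. Fdps, which joins isoprene units, had 5110 and 8547 (0.74). Fdft1, squalene synthase, had 2499 and 3908, and its probe sets gave 0.65 and 0.68. Sqle, the epoxidase, had 3954 and 6171 (0.64), and Lss, lanosterol synthase, 727 and 1262 (0.80). Cyp51, the lanosterol demethylase, had 2837 and 6222, 2.19-fold, and its 3 probe sets gave 1.13, 0.98 and 0.40. Further down, Nsdhl (0.96), Msmo1 (0.91) and Sc5d (0.77) lay near 1, while Ebp (0.09) and Hsd17b7 (0.16) lay within that error. The next probe set of Msmo1 gave 0.16. The list thus held values from -0.30 to 1.31.

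The day 6 cultures did not show the same level. There the list had a median of -0.022, 8 of 17 lay above zero and 0 passed 2-fold. Idi1 stood at -0.60 at day 6, with 3030 in normal and 1995 in osteogenic medium. Cyp51 (0.77) and Mvd (0.84) remained above zero. Neighbouring lipid lists were less even at day 3. In sterol uptake, sensing and export 10 of 16 lay above zero and 0 passed 2-fold, with a median of 0.27. The sterol-regulated Tmem97 (0.89), Insig1 (0.63), Stard4 (0.40) and the lipoprotein receptor gene Scarb1 (0.60) were its upper members. Lrp1, an endocytic receptor of lipoproteins, was its lowest, at -0.82 from signals of 5244 and 2973. Srebf1 (0.013) and Srebf2 (-0.016), which encode the controlling factors, lay at zero. Fatty acid synthesis and desaturation had 12 of 19 above zero and a median of 0.10, with Scd1, a desaturase, highest at 0.48 and Fasn, the synthase, at 0.15. Fatty acid oxidation had 11 of 21 above zero.

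**Figure D2:**
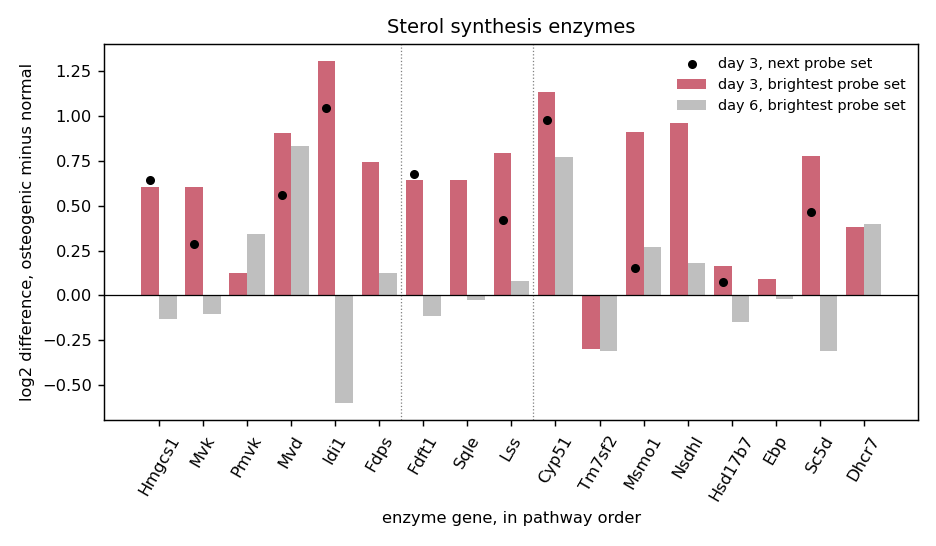
Log2 difference between media (vertical axis) for the 17 sterol synthesis enzymes in pathway order (horizontal axis), with red bars for day 3, grey bars for day 6 and black points for the next probe set at day 3. Dotted lines part the mevalonate, squalene and lanosterol stages, and 16 red bars stand above zero while the grey bars lie on both sides.

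BMP antagonists and BMP target genes held the 5 members past 2-fold of the BMP and TGF-beta list, of 43 measured, with 0 lower. Over all genes 1.97% were higher and 1.55% lower. Sostdc1, a secreted BMP and Wnt antagonist, had signals of 98.4 in normal and 564 in osteogenic medium at day 3 and of 157 and 984 at day 6. Both osteogenic arrays thus lay above both normal arrays, and its next probe set gave 1.81 against 2.52. Fst, follistatin, which binds activins and BMPs, had 3638 and 7713, with probe sets at 1.08 and 1.22. Bambi, a decoy receptor without kinase, had 123 and 309 (1.33). Id1, Id2 and Id3 encode inhibitors of helix-loop-helix factors that BMP signals induce. Id3 had 1045 and 2565 (1.30) and Id1 184 and 403 (1.14), while Id2 stood at 0.87 with a next probe set at 0.06. The fourth Id gene, Id4, lay on the other side at -0.37, with a next probe set at -0.40.

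The receptors of the same pathway lay below zero in all 8 measured genes, between -0.48 for Bmpr2 and -0.22 for Acvr1, with a median of -0.31. None passed 2-fold. Tgfbr2 stood at -0.27 with a next probe set at 0.43, and Bmpr2 had one at 0.14, so the sign of both depends on the probe set. The whole list had 19 of 43 above zero and a median of -0.035. Its ligand Bmp4 stood at 0.59 and Tgfb1, whose day 6 value was 1.71, at 0.15.

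Of 20 measured TNF ligands and receptors 4 were higher, all of them receptors, and 0 lower. Over all genes 1.97% were higher and 1.55% lower. The median brighter signal of the list was 159, and 15.6% of genes between 116 and 231 passed 2-fold either way. Tnfrsf11b, osteoprotegerin, the decoy that holds back osteoclast formation, had signals of 198 and 1062 at day 3 and of 230 and 1051 at day 6, and its probe sets gave 2.42 and 2.37. Tnfrsf12a, the receptor of TWEAK, had 1901 and 4144, with probe sets at 1.12 and 1.14. Fas, a death receptor, had 140 and 331 (1.24), and Eda2r, a receptor of ectodysplasin A2, had 360 and 774 (1.10). These last genes have 1 measured probe set each. Tnfrsf21, death receptor 6, lay lowest at -0.92, but its next probe set gave -0.050.

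Receptors of G protein and cyclic nucleotide signals included some of the largest differences, and here the probe sets differed. Ramp1, the subunit that makes a receptor for calcitonin gene-related peptide, had signals of 275 and 1702 at day 3 and of 283 and 2056 at day 6. The other measured probe sets of Ramp1 were dim, at most 87.0 at day 3, and gave 0.14 and 0.59, the latter from the floor. Pth1r, the parathyroid hormone receptor of osteoblasts, had 1079 and 2544 (1.24) from 1 probe set. Ptger4, a prostaglandin E2 receptor, stood at 1.30 with a dim next probe set at 0.20 from the floor, and Ptgis, prostacyclin synthase, at 1.44. Sstr2, a somatostatin receptor, had 63.1 and 257, a log2 difference of 2.02. Prkg2, the cGMP-dependent kinase that promotes growth of cartilage and bone, had 613 and 2082 at day 3 and 398 and 7968 at day 6. Its 3 probe sets gave 1.77, 1.54 and 1.09. The cyclic nucleotide list as a whole had 17 of 43 above zero, with Prkg2 and Pde1b higher and Prkar1b and Pde7b lower. Of these, Pde1b was at the floor in normal medium, at least 2.19-fold higher, and the probe sets of Prkar1b disagreed in sign, at -1.47, a bound from the floor in osteogenic medium, and 0.63, a bound from the floor in normal medium.

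Of 25 measured genes of MAP kinase phosphatases and Sprouty proteins 3 were higher, all of them phosphatases, and 0 lower. Over all genes 1.97% were higher. The median brighter signal of the list was 318, and 5.88% of genes between 231 and 463 passed 2-fold either way. Dusp6, the ERK phosphatase that growth factor signals induce, had 1132 and 2511 at day 3 (1.15) and 1371 and 5995 at day 6. Dusp18 had 160 and 387, with probe sets at 1.27 and 1.39, the latter a bound from the floor. Dusp5 had 107 in normal and 237 in osteogenic medium (1.15), but 244 and 346 at day 6, so the normal day 3 array alone was low. Dusp8 stood at 0.70, and its next probe set gave 2.05. The Sprouty genes Spry1 (0.04), Spry2 (0.11) and Spry4 (0.06), feedback inhibitors of the same signals, lay within the probe set error.

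Immediate-early genes, which serum and matrix signals switch on within minutes, had 25 of 31 measured members above zero, a median of 0.41 and 2 past 2-fold. Next probe sets lay above zero in 10 of 12. Fos, an AP-1 subunit, had signals of 274 and 700 at day 3 but 3545 and 5662 at day 6, so the normal day 3 array stood apart from the other 3. Fosb had 60.2, close to the floor, and 127. Junb (0.93), Egr1 (0.91), Egr2 (0.79), Nr4a1 (0.70) and Ier2 (0.64) lay under 2-fold, and Egr1 had the bright signals of 4902 and 9237. Myc (0.15), Jun (0.18) and Atf3 (-0.013) lay near zero, and Nr4a3 was lowest at -0.70. At day 6, where 4.1% of genes were higher and 2.78% lower, the list again had a median of 0.41, with 6 higher, led by Fosl1, Maff and Atf3 at 2.78 (a bound), 2.57 and 1.85, whose day 3 values were -0.31, 0.91 and -0.013. The cyclic AMP response element TGACGTCA was searched on both strands, over the same window as the sterol element. It was in 3 of 23 promoters of this list (Btg2, Dusp1 and Maff, 13.0%) and in 3.58% of those of measured genes. Neither Fos nor Fosb was among these. Other elements were searched too. The AP-1 site TGANTCA was in 0 of 23 against 6.17% of measured genes, and TTATGNAA in 0 against 2.36%. CACGTG was in 5 (21.7% against 11.6%) and the variant TGACGCAA in 1, Fosb (4.35% against 1.01%).

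Secreted Wnt regulators lay at both ends of their list of 37 measured genes, which had a median of -0.0031. Wnt7b, a ligand with a role in bone formation, had 80.3 and 278 (1.79). Notum, an enzyme that inactivates Wnt proteins, had 205 and 527 at day 3 and 190 and 517 at day 6. Nkd2, a feedback inhibitor inside the cell, had 4 measured probe sets between 0.62 and 1.22. Fzd1, a Wnt receptor, had 4764 and 8554, with probe sets at 0.84 and 0.89. On the other side lay secreted frizzled-related proteins, which bind Wnts. Sfrp2 had 18959 and 10566 (-0.84) and Sfrp1 132 and 58.2 (-1.18), the latter with a next probe set at 0.32. The co-receptor gene Lrp5 stood at -0.86.

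Genes of the FGF and IGF families, ligands, receptors and binding proteins together, lay mostly below zero. Of 13 measured FGF genes 2 lay above zero, with a median of -0.34, or -0.15 with neither floor nor filter, where 29 genes entered and 13 lay above zero. All 6 receptor genes lay below zero, between -0.62 for Fgfrl1 and -0.14 for Fgfr2, and the next probe sets of Fgfr2 (0.11) and Fgfr3 (0.52) lay above it. Fgf18, a ligand that acts on bone and cartilage, stood at -0.95 and Fgf7 at -0.59, while Fgfbp3, an FGF-binding protein, was higher at 1.04. In the IGF list 5 of 16 lay above zero. Igfbp2, a binding protein of IGFs, had signals of 988 and 3949 at day 3 (2.00) and 1032 and 7059 at day 6. Igfbp4, another binding protein, had 37190 and 20687, and its 6 measured probe sets gave between -1.43 and -0.85. The receptor genes Igf1r (-0.65), Igf2r (-0.66) and Insr (-0.40) lay below zero. In the Notch list the target gene Hes1 had 194 and 489 (1.33), and 5 of 16 lay above zero. Rbpj, the DNA-binding factor of Notch signalling, is not on that list and was picked after its values were seen. It had 3744 and 1823 (-1.04, next -0.91).

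Cell surface genes of epithelia were among the largest differences, from dim signals. Cdh1, E-cadherin, had 73.0 and 222 at day 3 (1.61) and 88.9 and 506 at day 6. Cdh3, P-cadherin, was at the floor in normal medium at both days and at 231 and 197 in osteogenic medium, a log2 difference of at least 2.00 at day 3. Krt14, a keratin of basal epithelium, had 110 and 300, with probe sets at 1.45 and 1.75, the latter from the floor, and Krt12, a keratin of the cornea, at least 1.52 and 1.78 from the floor. More epithelial genes started at the floor, so their values are bounds. The acidic keratin Krt23 had a log2 difference of at least 2.08 and the sugar-binding Lgals7 of at least 2.57. Itgb8, an integrin chain that activates latent TGF-beta, had 61.8 and 273 (2.15), but 154 in normal medium at day 6, so the normal day 3 array stood apart from the other 3. These families had members on both sides. Of 86 keratin and keratin-associated genes on the array 22 were measured and 11 lay above zero. The list was dim, with a median brighter signal of 87.8. It had 5 higher and 2 lower, where 1.97% of all genes were higher and 1.55% lower. The lower 2 were Krtap12-1, with 332 and 61.4 (-2.43), and Krtap10-4, with 215 and 88.3 (-1.28). At day 6 Krtap12-1 stood at -1.14 and Krtap10-4 at 0.97. Of 28 cadherin genes 2 were higher and Fat4 lower. Of the other keratinocyte markers searched, Krt5, Krt1 and Ivl were at the floor on both day 3 arrays. Krt10 stood at 0.44, and Dsg3 had no probe set with 1 symbol and was not analysed.

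Other large differences that several probe sets shared came from genes of unlike function. Itm2a, a transmembrane protein of early cartilage and muscle cells, had signals of 97.7 and 1075 at day 3 and 186 and 831 at day 6, with probe sets at 3.46 and 1.78. Cgref1, a secreted calcium-binding growth regulator, had 444 and 1656 (1.90, next 1.56). Steap4, a metalloreductase, had 81.1 and 277 (1.77, next 1.24). Smpd3, the neutral sphingomyelinase needed for bone mineral, had 3 probe sets at 1.53, 1.24 (from the floor) and 1.10. Rarres2, chemerin, had 74.7 and 181 (1.28, next 1.47, the latter from the floor). Among genes with 1 measured probe set, C1qtnf3, a secreted C1q-like protein, had 156 and 802 (2.36) and Il33, a nuclear cytokine, was at least 5.60-fold higher from the floor. Car3, a carbonic anhydrase, was at least 5.15-fold higher on 1 probe set, while the next gave 0.24 from dim signals of 72.9 and 86.0.

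**Figure D3:**
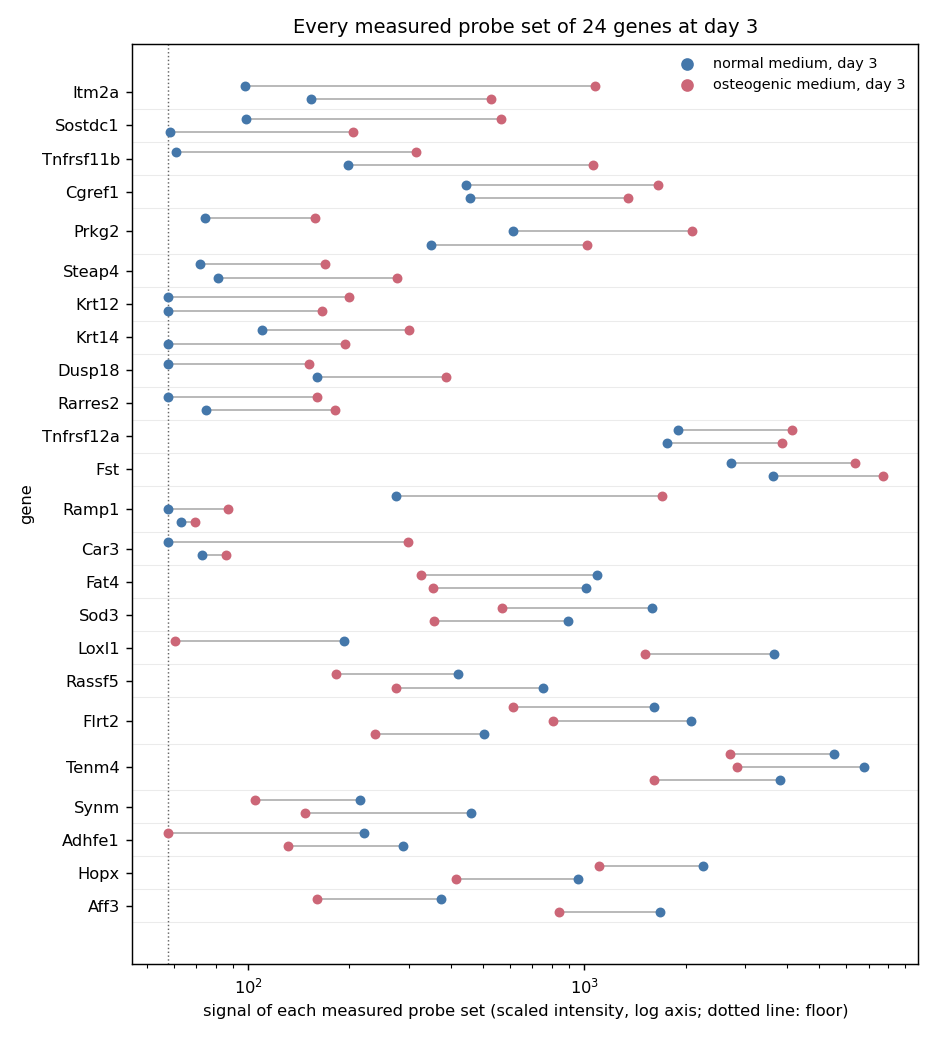
Signals of every measured probe set of 24 genes at day 3 (horizontal axis, log scale, dotted line at the floor of 57.8), with blue points for normal and red for osteogenic medium and 1 row per probe set. For most genes the rows run the same way with like length, whereas Ramp1 and Car3 each have 1 long row and short dim ones.

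Lower genes with bright signals or several probe sets included adhesion molecules of the cell surface and proteins of the matrix. Sned1, a matrix glycoprotein, had signals of 2343 and 505 at day 3 and 3118 and 321 at day 6. Fat4, a giant cadherin of the Hippo and planar polarity pathways, had 1014 and 356, with probe sets at -1.51 and -1.74. Flrt2, a guidance and adhesion protein, had 3 probe sets between -1.39 and -1.07. Tenm4, a teneurin, had 6783 and 2844, with 3 probe sets between -1.25 and -1.02. Ptprd, a receptor phosphatase of synaptic adhesion, had 313 and 92.8, with 3 probe sets between -1.89 and -0.90. Loxl1, which cross-links elastin, had 3664 and 1512 (-1.28, next -1.67), and Ltbp4, which holds latent TGF-beta on elastic fibres, 1016 and 368 (-1.46). Ogn, osteoglycin, a small leucine-rich proteoglycan, was just under 2-fold lower with probe sets at -0.99 and -1.21, from the bright signals of 25498 and 12826. Of the 10 measured proteoglycans of that family 3 lay above zero, with a median of -0.46, and Lum, lumican, was the one past 2-fold, with 13698 and 29054 (1.08).

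Guidance cues and their receptors lay below zero in 25 of 37 measured genes, with a median of -0.32 and 1 past 2-fold. The next probe set lay above zero in 7 of the 20 genes that had one. The members rest on many modest values. Sema3c, a secreted semaphorin, had 4264 and 1909 (-1.16, next -0.53). Plxna2, a plexin receptor, had 619 and 342, with both probe sets at -0.85, and Sema5a had 195 and 109 (-0.84, next -1.13). Of 16 semaphorins 12 lay below zero, with a median of -0.40, and of 11 plexins and neuropilins 8, with a median of -0.33. Unc5b, a netrin receptor, was the highest, at 0.84 with a next probe set at 0.57. At day 6 the list had a median of 0.12, with 5 higher and 2 lower. Ephrin B2, a ligand of the osteoblast-osteoclast dialogue, encoded by Efnb2, had 4 measured probe sets at -1.92, -1.04, -0.60 and -0.040, and the osteogenic signal was at the floor for the last pair. Neurotrophin receptors held the lower members of their list of 10. Ngfr, the p75 receptor, had 622 and 166 at day 3 and 828 and 284 at day 6, with a next probe set at -0.59 whose osteogenic signal was at the floor. Ntrk3, the receptor of neurotrophin 3, had 5 measured probe sets between -1.08 and -0.33, the latter a bound from the floor.

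ABC transporters lay below zero in 18 of 28 measured genes, with a median of -0.28, 3 lower and 0 higher. Over all genes 1.55% were lower and 1.97% higher. The median brighter signal of the list was 404, and 5.88% of genes between 231 and 463 passed 2-fold either way. Among the lipid transporters of subfamily A 8 of 9 lay below zero, with a median of -0.91, against -0.097 at day 6. Next probe sets of the whole list were more even. They lay above zero in 5 of the 11 genes that had one, and took the sign of the first in 5 of 11. Abca5 had 381 and 178 (-1.10) and Abca8b 146 and 64.4 (-1.18). Abca9 had 2579 and 1374 (-0.91), but a next probe set at 0.17. Abcb9, a lysosomal peptide transporter, was at the floor on the osteogenic day 3 array alone, at least 3.45-fold lower, and at 133 to 200 on the others.

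Some oxidising and antioxidant enzymes were lower, some from the lists and some from outside them. Sod3 and Adhfe1 were named for large differences over all their measured probe sets, not from a list. Aldh3a1, an aldehyde dehydrogenase, had 1192 and 318 at day 3 and 1578 and 230 at day 6. Aox1, aldehyde oxidase, had 954 and 288 (-1.73), and Fmo1, a flavin monooxygenase, 206 and 62.3 (-1.72). Both were picked after their values were seen. Sod3, extracellular superoxide dismutase, had 1588 and 569, with probe sets at -1.48 and -1.33, and 2006 and 1274 at day 6, so the osteogenic day 3 array was the lowest of the 4. Adhfe1, an alcohol dehydrogenase, had 288 and 131 (-1.14, next -1.93, the latter a bound from the floor). Of 17 measured aldehyde dehydrogenases 6 lay above zero, with Aldh1a7 higher and Aldh3a1 and Aldh3b2 lower. Of 17 measured cytochromes P450 9 lay above zero, with Cyp51 and Cyp2j6 (1.01, next 0.14) higher and Cyp2b10 at least 2.84-fold lower, with the osteogenic signal at the floor. Glutathione transferases lay below zero in 14 of 18, with a median of -0.14 and 0 past 2-fold, and the NRF2 list had a median of -0.11 with Osgin1 lower at -1.12.

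Ascorbate transporters and ascorbate-dependent enzymes, which handle the vitamin that differed between the media, lay below zero in 27 of 35 measured genes, with a median of -0.21 and 1 past 2-fold. The next probe set lay above zero in 4 of the 21 genes that had one. P4ha1, the catalytic chain of collagen prolyl hydroxylase, had 3522 and 1945, with probe sets at -0.86 and -1.02. Egln1, the main oxygen sensor hydroxylase, had 1582 and 1015 (-0.64, next -0.60). Slc23a2, the ascorbate transporter, had 797 and 470 (-0.76, next -0.17). Demethylating dioxygenases of histones, DNA and RNA lay below zero in 15 of 17, with a median of -0.21, and Tet3 was at the floor, at least 3.22-fold lower. P3h1 (0.43), P4ha2 (0.31) and Tet2 (0.32) lay above zero.

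Gene size moved with some of these lists. When the measured genes were parted into 4 equal classes of genomic span in RefSeq, whose medians were 5.11, 15.7, 34.0 and 101 kilobases, 1776 of 2955, 1653 of 2953, 1482 of 2954 and 1111 of 2954 lay above zero, with medians of 0.092, 0.047, 0.0020 and -0.11. At day 6 the medians were 0.11, 0.016, -0.024 and -0.068. The median span was 62.4 kilobases for the ascorbate list, 45.2 for ABC transporters and 44.4 for guidance genes. It was 16.1 for sterol synthesis and 4.29 for immediate-early genes, against 23.2 for all measured genes. Other lists with short spans lay below zero. The FGF list had a median span of 15.3 kilobases and a median difference of -0.34, and the small leucine-rich proteoglycans 16.8 kilobases and -0.46. Glutathione transferases had 7.47 kilobases with 4 of 18 above zero, and cytosolic ribosomal proteins 3.55 kilobases with a median difference of -0.13. The part of gene size in the lists was not tested.

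**Figure D4:**
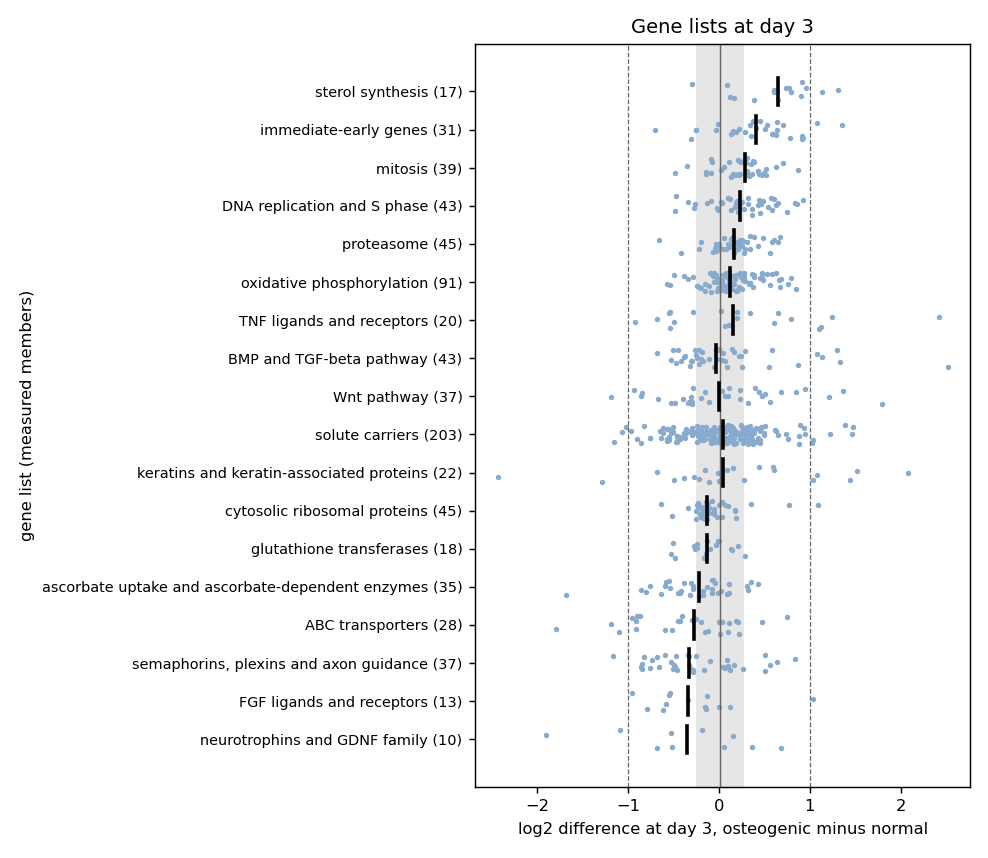
Log2 difference at day 3 (horizontal axis) of each measured member of 18 gene lists (vertical axis, members in brackets), with black bars at the medians, grey shading between the quartiles of all 11835 genes and dashed lines at 2-fold. Sterol synthesis at 0.65, immediate-early genes at 0.41 and mitosis at 0.28 lie above the shading, while guidance genes, ABC transporters, FGF and neurotrophin genes lie below it at -0.32, -0.28, -0.34 and -0.35.

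Growth and energy genes lay a little above zero with few or no members past 2-fold. DNA replication genes lay above zero in 34 of 43 measured, with a median of 0.24, and mitosis genes in 32 of 39, with a median of 0.28. Neither list had a member past 2-fold. Their next probe sets lay above zero in 22 of 27 and in 20 of 22 genes. Cenpa, the centromeric histone, was highest in mitosis with 1764 and 3229 (0.87), and Orc1, an origin recognition subunit, in replication with 92.3 and 175 (0.92). At day 6 the medians were -0.65 and -0.85, with 9 lower in each list. Oxidative phosphorylation genes lay above zero in 67 of 91, with a median of 0.12, and proteasome genes in 34 of 45, with a median of 0.17.

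Cytosolic ribosomal protein genes lay below zero in 35 of 45, with a median of -0.13, which turned to 0.019 with 25 of 45 above zero after quantile normalization. They are very bright, with a median signal of 49070. Over all 53 measured genes brighter than 40000, 7 lay above zero and the median was -0.17. Endoplasmic reticulum folding and ATF4 genes both had medians of -0.15 at day 3, against 0.85 and 1.07 at day 6. Calr, a chaperone, stood at -0.45 at day 3 and 0.41 at day 6.

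How far a call extends to a second probe set can be set beside the day 6 cultures. Of the 417 genes past 2-fold, 144 had 2 or more measured probe sets, and 41 of these had a next brightest probe set past 2-fold the same way. In 31 genes, 18 higher and 13 lower, every measured probe set passed 2-fold. Of the 41 genes 37 had the same sign at day 6 (90.2%) and 25 passed 2-fold there (61%). Over all 404 genes past 2-fold at day 3 and measured at day 6, these shares were 77.2% and 34.7%. Among all genes measured at day 6, 4.1% were higher and 2.78% lower. Where the next probe set had only the same sign, 68 of 80 kept it at day 6 (85%) and 28 passed 2-fold. Where it had the opposite sign, 15 of 22 did (68.2%) and 2 passed 2-fold. Of 261 genes with 1 measured probe set, 192 had the same sign at day 6 (73.6%) and 85 passed 2-fold. The genes with opposite probe sets were dimmer, with a median brighter signal of 197 against 594 in the first class. Among single probe set genes 130 of 161 higher ones kept their sign (80.7%) and 62 of 100 lower ones (62%). Differences between the shares of any of these classes were not tested.

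**Figure D5:**
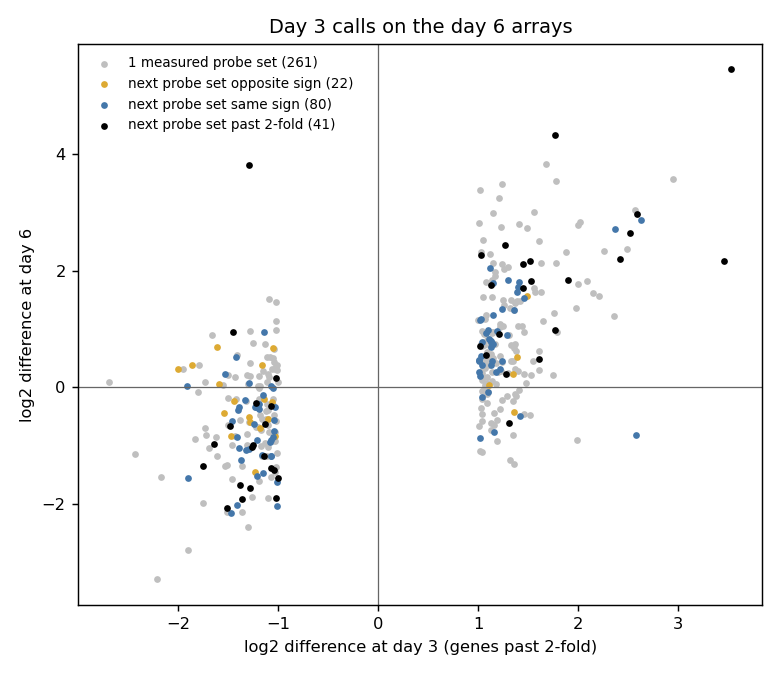
Log2 difference at day 6 (vertical axis) against that at day 3 (horizontal axis) for the 404 genes past 2-fold at day 3 that were measured at day 6, coloured by what the next probe set did at day 3. Black points, whose next probe set also passed 2-fold, lie in the quadrants of equal sign in 37 of 41 cases.

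In 101 of the 417 genes (24.2%) each osteogenic array lay at least 2-fold beyond each normal array, 67 upward and 34 downward. Examples upward are Tnfrsf11b, Igfbp2, Pth1r and Id3, and downward Sned1, Fat4, Flrt2 and Loxl1. In 31 genes (7.43%) the normal day 3 array alone lay 2-fold beyond the other 3. Among them were Zdhhc12, with 421 against 64.8 to 69.2, and Zdhhc14, at the floor against 179 to 346, so the largest differences of the palmitoyltransferase family both rest on that array. In 44 genes (10.6%) the osteogenic day 3 array alone stood apart, 12 upward and 32 downward, among them Cnn1 with 413 against 82.0 to 154, Sod3 with 569 against 1274 to 2006 and Cry2, a clock repressor, at the floor against 154 to 223. The other 241 (57.8%) followed none of these.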

How the data were processed

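Total RNA of MC3T3-E1 cells was measured on 4 Affymetrix Mouse Genome 430 2.0 arrays, 1 per medium and day. The table deposited by the authors holds linear intensity values, 1 for each probe set of an array, with the same trimmed mean of 500 throughout. The summarisation software is not given in the sources used here. The 45037 probe sets other than controls set a 75th percentile that all arrays were brought to, signals under the pooled 50th percentile (57.8) were set to that floor, and log2 was taken (Python 3.11.15, pandas 2.3.3, numpy 2.4.6). Names came from GEO's array annotation. Of 45101 probe sets 34945 had 1 symbol, 932 several and 9160 none, and 34741 matched RefSeq (GRCm38.p6) by Entrez ID. A gene took its probe set with the highest mean log2 signal. Measured genes exceeded the floor in 1 or both day 3 cultures, and a difference from the floor is written "at least". The steps were checked on simulated arrays with known changes.

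Named genes were the 12 highest and 12 lowest outside clone names, mineralisation genes and genes whose probe sets disagreed in sign, up to 5 members past 2-fold of each of 81 lists (otherwise the highest and lowest), and the 15 genes in each direction with the largest smallest difference over at least 2 probe sets. Members of lists named with smaller values, and subgroups of lists, were chosen after their values were seen. The comparison, lists and members were chosen with earlier results of these data known. List members to which no probe set with 1 symbol was assigned were not analysed here. Alternatives changed scaling, floor, filter and probe set rule.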

Additional observations from a re-analysis of the deposited data

Results flagged for a closer look

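The media differed past 2-fold in opposite directions at day 3 and day 6 in 8 genes. Whether the days differ was not tested, since each value compares 2 single arrays. Aldh1a7, an aldehyde dehydrogenase, had a log2 difference of 1.36 at day 3 and -1.31 at day 6. Otor, a secreted SH3-domain protein of cartilage and the inner ear, had 1.32 and -1.25, from signals of 511 and 1275 at day 3 and 470 and 198 at day 6. Eme1, a subunit of a DNA repair nuclease, had 1.02 and -1.09, and Kcnk4, a potassium channel, 1.04 and -1.11, with its lower signal close to the floor at both days. Fahd2a had -1.29 and 3.81, at the floor in osteogenic medium at day 3. Its other measured probe sets gave -1.03 and 0.23 at day 3. Inpp5j, an inositol phosphatase, had -1.02 and 1.46, Ptprn, a receptor phosphatase of secretory granules, -1.02 and 1.13, and Susd5 -1.09 and 1.51. The osteogenic day 3 signals of Ptprn and Susd5 lay at the floor, and so did their normal day 6 signals, so the values of both days are bounds. The day 6 value of Eme1 is a bound too, with the osteogenic signal at the floor. Of the 8 genes, 7 had 1 measured probe set.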

How the results depend on the processing

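No paired analysis was possible because each group has 1 array. The count of higher genes, 233, became 388 under a floor at the 40th percentile, 134 under one at the 60th and 2329 with neither floor nor filter. The count of lower genes, 184, became 347, 91 and 2084 under the same changes and 97 with a gene's probe sets averaged. The 41 genes with a second probe set past 2-fold became 26 with the higher floor and 424 with neither floor nor filter. The median of the ribosomal protein list turned from -0.13 to 0.019 with quantile normalization. A tally of 131 results held the named genes past 2-fold and, with them, the count of 41 genes. All kept their sign in every one of the 10 alternatives that gave a value. Of the 131, 61 stayed past the threshold throughout, the count of 41 included. The cause of the other shifts in count was not tested, beyond that a lower floor and no filter admit more dim genes (13748 and 18193 tested). The number of arrays, 1 per group, limits the precision of every value. Genes at the floor on one side have only a bound, and signals close to the floor can cross it under another floor. Leaving out a replicate was not possible.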

Other observations

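Several families not described above had few members past 2-fold. Solute carriers, 203 measured, had a median of 0.047, with 6 higher and 3 lower. Slc2a3, a glucose transporter, had a log2 difference of 1.39 on 1 probe set and 0.072 on the next. Zinc finger genes with the Zfp name, 288 measured, had a median of 0.00038, with 4 higher and 2 lower. Olfactory and vomeronasal receptors, known from sensory neurons, had 6 of 75 genes measured, 1 of these above zero, a median of -0.25 and 0 past 2-fold.

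Potassium channels had 3 of 24 measured members higher, Kcne4 (1.35), Kcnf1 (at least 1.05, from the floor) and Kcnk4 (1.04), and 0 lower. Over all genes 1.97% were higher. The list was dim, with a median brighter signal of 121, and 15.6% of genes between 116 and 231 passed 2-fold either way. At day 6 Kcne4 stood at -0.81, Kcnf1 at 1.54 (a bound) and Kcnk4 at -1.11. Clock genes had 10 of 20 above zero, with Per2 (0.91) and Nr1d1 (0.89) highest and Cry2 lowest at -1.95, a bound. At day 6 Per2, Nr1d1 and Cry2 stood at -0.31, -0.06 and 0.31. Among osteoblast regulators Dlx3, a homeobox factor, was higher with 93.6 and 258 (1.46, next 0.74) and Alx4 lower at -1.19, at the floor in osteogenic medium.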
